A study of Homo sapiens with 4 samples.

Results

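The 10 genes CDH1, GRHL2, CDH2, VIM, FN1, SNAI1, SNAI2, ZEB1, ZEB2 and TWIST1, which mark or drive the step between epithelial and mesenchymal states, were read from RNA-seq counts of OVCAR5 cells, out of 56655 gene symbols in the tables. They were 2 epithelial genes (CDH1 and GRHL2), 3 mesenchymal genes (CDH2, VIM and FN1) and 5 transcription factors of the epithelial-mesenchymal transition (EMT), namely SNAI1, SNAI2, ZEB1, ZEB2 and TWIST1. The rule that picked them used gene names and no measured value, but it was drawn up with earlier results of these data known. OVCAR5 is an established human ovarian cancer cell line that came from ascites, and its samples are labelled high grade serous. Cells grown in RPMI with serum were stably transduced by lentivirus with a nontargeting hairpin (shCtrl, n = 2 libraries) or with a hairpin against the forkhead transcription factor gene FOXK2 (shFOXK2, n = 2 libraries), and both groups were selected with puromycin. A single FOXK2 hairpin was sequenced, so hairpin and target cannot be told apart. The replicates are described as biological duplicates, with no statement of separate transductions, so p-values measure the spread between these samples.

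E-cadherin, the product of CDH1, holds epithelial cells together at adherens junctions, where its tail binds catenins. During EMT, transcription factors of the Snail, ZEB and TWIST families can bind E-box sequences and repress CDH1, while N-cadherin (CDH2), the filament protein vimentin (VIM) and the matrix protein fibronectin (FN1) are used as mesenchymal markers. GRHL2 is a grainyhead-type factor that keeps CDH1 and other junction genes active and represses ZEB1. Ovarian carcinoma cells are known for mixing markers of both states.

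Libraries held between 14284005 and 21950873 counts, and 3 counts, the smallest level taken as measurable, equalled 0.134 to 0.211 CPM (counts over library size, scaled between libraries by trimmed means). Replicates of one group were not copies of a library, with chi-square statistics of 36.4 and 24.8 per gene where sampling alone gives about 1. FOXK2 itself collected 1796 and 1499 counts under shCtrl against 1086 and 1084 under shFOXK2, or 80.5 and 93.4 against 76.3 and 59.6 CPM. Its log2 fold change of −0.36 (SE 0.25, adjusted p = 0.257, edgeR quasi-likelihood test) did not exceed the replicate spread. With an offset that removes the trend of each library on GC content it was −0.07 (adjusted p = 0.754). With such an offset on A content it was −0.035 (adjusted p = 0.881). The transcript level in these libraries alone thus does not establish the size of the knockdown. Apart from these libraries, the paper reports lower FOXK2 by qRT-PCR and by Western blot in OVCAR5 cells carrying FOXK2 hairpins. Of the labelled cell type's markers, the keratin gene KRT8 had between 26420 and 44648 counts, EPCAM between 1142 and 2350 and PAX8 between 156 and 351. WT1, a marker of serous ovarian carcinoma, had between 0 and 2. MUC16 had 397 and 145 counts under shCtrl against 0 and 8 under shFOXK2.

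Of the 10 genes 4 changed, and they did not divide by epithelial and mesenchymal class. FN1 was 32.7-fold lower and CDH1 16.5-fold lower in shFOXK2, ZEB1 was 5.18-fold higher, and VIM was 1.73-fold higher. SNAI1, SNAI2 and ZEB2 did not pass the test, and GRHL2, CDH2 and TWIST1 were too sparse to be tested. The filter on low counts left 7 of the 10 genes. Of these 7, 2 were higher and 2 lower at an adjusted p under 0.05, while over all 16417 tested genes 48.4% passed, 25.7% as higher and 22.7% as lower. For 5 of the 7 both shFOXK2 libraries lay on one side of both shCtrl libraries, against 75.4% of all tested genes, so neither count sets these genes apart from the rest.

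**Figure D1:**
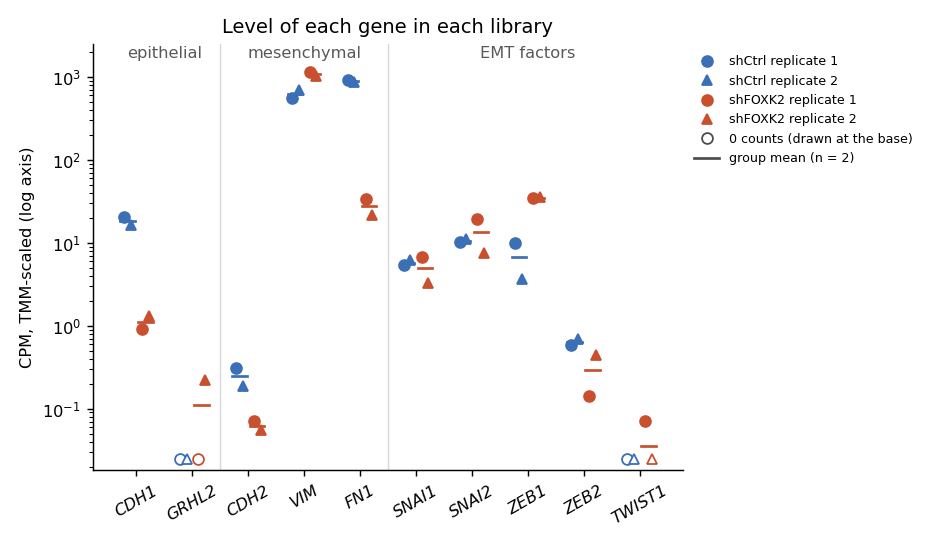
Level of the 10 genes in each of the 4 libraries, in CPM on a log axis, with bars at the group means and open symbols at the base for 0 counts. CDH1 and FN1 were far lower in both shFOXK2 libraries, ZEB1 and VIM were higher in both, and the shFOXK2 values of SNAI1 and SNAI2 lay on both sides of shCtrl.

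CDH1 (ENSG00000039068.20, chromosome 16 of hg38, 68737292 to 68835537, plus strand) encodes E-cadherin. It collected 459 and 260 counts under shCtrl against 13 and 24 under shFOXK2, which is 20.6 and 16.2 CPM against 0.914 and 1.32 CPM. The groups did not overlap, and all 4 counts lay above the smallest measurable level. CDH1 averaged 18.4 ± 3.10 CPM in control and 1.12 ± 0.286 CPM in shFOXK2 cells (SD, n = 2 per group), or 6.07% of control (log2 fold change −4.02, SE 0.37, adjusted p = 5.12e-06). Only 0.841% of tested genes had a lower log2 fold change. The fall was of similar size in each setting tried, from −4.12 to −3.71 on the log2 scale over 11 settings with all 4 libraries and from −4.35 to −3.82 over the 4 fits that left out 1 library.

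GRHL2, the epithelial factor, collected 0 and 0 counts under shCtrl against 0 and 4 under shFOXK2. The gene was thus at or near 0 in both groups, also in the shCtrl cells that carried CDH1 transcript. In the fit without a filter its adjusted p was 0.296.

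CDH2, encoding N-cadherin, was nearly absent as well. It collected 7 and 3 counts under shCtrl against 1 and 1 under shFOXK2. The summed counts of 10 and 2 give a ratio of shCtrl to shFOXK2 of 4.23, with a 95% exact interval from 0.901 to 39.7 that covers counting error alone and includes no difference. CDH2 was thus not higher in the libraries in which CDH1 was lower.

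FN1 (ENSG00000115414.21, chromosome 2, 215360440 to 215436073, minus strand) encodes fibronectin, a secreted glycoprotein of the extracellular matrix. It collected 20549 and 14121 counts under shCtrl against 480 and 389 under shFOXK2, or 921 and 879.6 against 33.7 and 21.4 CPM. The shCtrl libraries were close to each other and the shFOXK2 libraries lay far below them. FN1 averaged 900.4 ± 29.3 CPM in control and 27.6 ± 8.75 CPM in shFOXK2 cells (SD, n = 2 per group), or 3.06% of control (log2 fold change −5.03, SE 0.31, adjusted p = 3.16e-07). This was the largest change among the 7 tested members, and 0.457% of tested genes had a lower value. Settings with all 4 libraries gave −5.13 to −4.75, and fits without 1 library gave −5.42 to −4.77.

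Of the members 5 (CDH2, VIM, FN1, ZEB1 and ZEB2) had entries in the RefSeq promoter table of GRCh38.p14, while CDH1, GRHL2, SNAI1, SNAI2 and TWIST1 had none. The promoter window of FN1, from 250 bases before to 50 after its start site, is shown because FN1 changed most. Capitals mark a TGACGTCA, the palindromic cyclic AMP response element that factors of the ATF and CREB families can bind, which starts at −183 from the start site. This motif was added to the search after the sequences were seen, and 1.85% of 35116 windows in the table hold it. The window lies at chr2:215436019-215436318 and reads 5′ to 3′ on the minus strand.
FN1 promoter: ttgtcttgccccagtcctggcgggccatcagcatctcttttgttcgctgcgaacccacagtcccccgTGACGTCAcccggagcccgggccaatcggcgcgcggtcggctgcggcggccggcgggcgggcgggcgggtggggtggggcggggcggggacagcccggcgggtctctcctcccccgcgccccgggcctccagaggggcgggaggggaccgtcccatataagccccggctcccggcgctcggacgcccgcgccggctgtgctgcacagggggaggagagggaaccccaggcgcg
Neither an E-box of the type CAGGTG or CACCTG, found in 20.6% of windows, nor the FOXK-type motif TGTTTAC or GTAAACA, found in 3.42%, is in this window.

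VIM (ENSG00000026025.16, chromosome 10, 17228241 to 17237593, plus strand) encodes vimentin, an intermediate filament protein of mesenchymal cells that carcinoma lines often express too. It collected 12309 and 11268 counts under shCtrl against 16329 and 18549 under shFOXK2, which is 552 and 702 against 1148 and 1019 CPM. Both shFOXK2 libraries were above both shCtrl libraries. VIM rose from 627 ± 106 CPM in control to 1083 ± 91.2 CPM in shFOXK2 cells (SD, n = 2 per group; log2 fold change 0.79, SE 0.24, 95% interval 0.27 to 1.31, adjusted p = 0.0161). The call did not hold without shCtrl replicate 1 (log2 fold change 0.59, adjusted p = 0.0799) or without shFOXK2 replicate 1 (0.68, adjusted p = 0.0805). VIM-AS1, an antisense gene that shares exon sequence with VIM, had between 10 and 48 counts in the 4 libraries.

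ZEB1 (ENSG00000148516.23, chromosome 10, 31318495 to 31529814, plus strand) encodes a zinc finger and homeodomain factor that represses CDH1 and is itself held down by microRNAs of the miR-200 family. It collected 220 and 59 counts under shCtrl against 488 and 653 under shFOXK2, or 9.86 and 3.68 against 34.3 and 35.9 CPM. The shCtrl libraries differed more from each other than the shFOXK2 libraries did, but both lay below. ZEB1 rose from 6.77 ± 4.37 CPM in control to 35.1 ± 1.11 CPM in shFOXK2 cells (SD, n = 2 per group; log2 fold change 2.36, SE 0.39, adjusted p = 0.000303). When shCtrl replicate 1 was left out the log2 fold change was 3.22, and without shCtrl replicate 2 it was 1.76. The ZEB1 transcript is 33.0% A, more than 95.1% of tested genes, and with an offset that removes the trend of each library on A content its log2 fold change was 1.27 (adjusted p = 0.00559). ZEB1-AS1, which runs antisense from the ZEB1 promoter and shares exon sequence with it, collected 59 and 29 counts under shCtrl against 52 and 80 under shFOXK2. Since strand handling in the counting was not stated, reads of these partners cannot be told apart.

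ZEB1, the EMT factor that rose, has 7 promoter windows. Of these, 2 are shown, the canonical window and the only window with the FOXK-type motif. The first, at chr10:31318966-31319265 on the plus strand, belongs to the start site of the canonical transcript and holds 3 E-boxes, in capitals, at −242, −85 and 34 from the start site. The second, at chr10:31321410-31321709 on the plus strand, surrounds a start site further downstream. Its capitals mark a GTAAACA that starts at position 10 and a TGTTTAC that starts at position 17, which meet end to end as a palindrome of the FOXK-type motif.
ZEB1 canonical promoter: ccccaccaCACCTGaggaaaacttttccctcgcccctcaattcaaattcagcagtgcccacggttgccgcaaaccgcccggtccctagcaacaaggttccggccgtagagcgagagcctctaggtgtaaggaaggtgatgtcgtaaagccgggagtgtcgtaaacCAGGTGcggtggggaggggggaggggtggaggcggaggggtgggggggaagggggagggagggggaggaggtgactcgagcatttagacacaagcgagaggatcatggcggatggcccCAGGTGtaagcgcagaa
ZEB1 downstream promoter: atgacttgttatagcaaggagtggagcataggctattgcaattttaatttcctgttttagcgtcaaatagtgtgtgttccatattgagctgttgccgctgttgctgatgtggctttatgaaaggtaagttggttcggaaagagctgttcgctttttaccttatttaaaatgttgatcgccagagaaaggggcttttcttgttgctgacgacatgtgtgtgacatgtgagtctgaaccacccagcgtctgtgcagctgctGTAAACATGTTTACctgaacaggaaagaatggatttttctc
Another ZEB1 window holds 1 E-box. The remaining ZEB1 windows and those of CDH2, VIM and ZEB2 hold none of the 3 motifs. The FOXK-type motif is in at least 1 window of 4.19% of 27305 genes, and a gene with 7 windows has more room for a match. These matches are letters in a window, and binding was not measured in the files used here.

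The other EMT factors were examined next. SNAI1 encodes Snail, and its counts were 120 and 99 in shCtrl and 96 and 59 in shFOXK2. In CPM these were 5.38 and 6.17 against 6.75 and 3.24, so one shFOXK2 library lay above and one below both shCtrl libraries. Its log2 fold change was −0.22 (SE 0.38, 95% interval −1.04 to 0.61, adjusted p = 0.667). SNAI2 encodes Slug, and it showed the same arrangement, with 229 and 177 counts under shCtrl against 275 and 139 under shFOXK2. Its log2 fold change was 0.34 (SE 0.38, 95% interval −0.49 to 1.16, adjusted p = 0.495). For neither gene does the interval leave out a change in either direction, and both changed sign in some settings. For both genes replicate 1 was the higher of the shFOXK2 libraries.

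ZEB2, the paralog of ZEB1, collected 13 and 11 counts under shCtrl against 2 and 8 under shFOXK2. Both shFOXK2 libraries were lower, the opposite side from ZEB1, but its log2 fold change of −1.03 (SE 0.61, 95% interval −2.34 to 0.28) did not pass (adjusted p = 0.178). It was at −2.13 (adjusted p = 0.099) without shFOXK2 replicate 2 and at −0.53 (adjusted p = 0.59) without shFOXK2 replicate 1. With the A-content offset the value was −1.85 (adjusted p = 0.0324). The count of members past the threshold was then 5. TWIST1, a basic helix-loop-helix factor, had 1 count in shFOXK2 replicate 1 and 0 in the other libraries, so it was not detected above 3 counts in any of them.

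**Figure D2:**
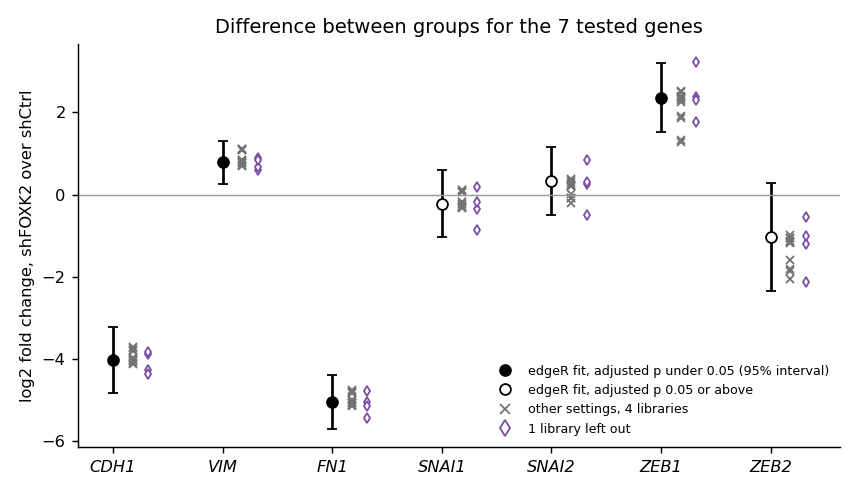
Log2 fold change of shFOXK2 over shCtrl for the 7 tested genes, with 95% intervals from the edgeR fit, crosses for other settings with all 4 libraries and diamonds for fits with 1 library left out. CDH1 and FN1 stay between −5.42 and −3.71 in each setting, ZEB1 runs from 1.27 to 3.22, VIM from 0.59 to 1.11, and SNAI1 and SNAI2 lie on both sides of 0.

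Levels were then compared between genes as CPM per kb of merged exon, since longer transcripts collect more reads. In shCtrl the order was VIM (121 ± 20.5), FN1 (52.3 ± 1.70), SNAI1 (3.39 ± 0.327), SNAI2 (3.24 ± 0.164), CDH1 (3.03 ± 0.509) and ZEB1 (0.782 ± 0.506; all SD, n = 2). CDH2 (0.0292 ± 0.0105) and ZEB2 (0.0242 ± 0.00277) followed, within their spread of each other. SNAI1, SNAI2 and CDH1 were within their spread of each other. VIM ranked 283 and 245 and FN1 714 and 852 of 37198 genes with a length, whereas CDH1 ranked 7879 and 8267. The shCtrl cells thus held abundant vimentin and fibronectin transcript beside a lower level of E-cadherin transcript. In shFOXK2 the order was VIM (209 ± 17.6), SNAI2 (4.11 ± 2.52), ZEB1 (4.06 ± 0.128), SNAI1 (2.93 ± 1.45), FN1 (1.60 ± 0.508) and CDH1 (0.184 ± 0.0471). ZEB2 (0.0111 ± 0.00808) and CDH2 (0.00730 ± 0.00127) lay lower still. SNAI2, ZEB1 and SNAI1 did not differ beyond their spread. VIM ranked 122 and 142 there, while FN1 ranked 9502 and 10933 and CDH1 16160 and 15872.

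Ratios within a library do not depend on scaling between libraries, and they were used to set epithelial against mesenchymal genes. The log2 ratio of CDH1 to VIM per kb was −4.98 and −5.67 in shCtrl and −10.53 and −9.83 in shFOXK2, a difference of −4.85. By this pair the shFOXK2 cells were further toward the mesenchymal side. The log2 ratio of CDH1 to FN1 was −3.98 and −4.26 in shCtrl and −3.70 and −2.52 in shFOXK2, a difference of 1.01 in the opposite direction. The shFOXK2 libraries themselves differed by more than that in this ratio. The log2 ratio of CDH1 to CDH2 averaged 6.73 ± 0.28 in shCtrl against 4.64 ± 0.63 in shFOXK2 cells (SD, n = 2 libraries), a difference of −2.09 that rests on 1 count of CDH2 in each shFOXK2 library. CDH1 was thus lower relative to VIM and CDH2 and higher relative to FN1. The log2 ratio of FN1 to VIM fell by 5.86, from −0.99 and −1.41 to −6.82 and −7.31, so both mesenchymal markers themselves parted. ZEB1 was below CDH1 per kb in both shCtrl libraries (log2 ratio −1.57 and −2.65) and above it in both shFOXK2 libraries (4.72 and 4.26). A mean over both epithelial genes minus a mean over the 3 mesenchymal genes, with 0.5 counts added, came to −5.67 ± 0.127 under shCtrl against −4.83 ± 1.45 under shFOXK2 (SD, n = 2). The difference of 0.84 is smaller than the SD of shFOXK2, and the score rests on GRHL2 and CDH2, which were close to 0. These ratios are descriptions without a test.

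**Figure D3:**
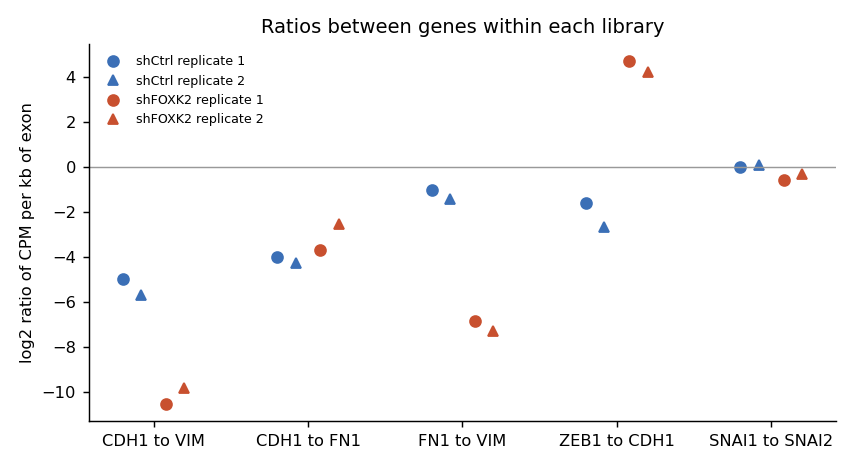
Log2 ratios of CPM per kb of exon between pairs of genes in each of the 4 libraries. CDH1 to VIM and FN1 to VIM are lower in both shFOXK2 libraries, ZEB1 to CDH1 is higher, and CDH1 to FN1 is higher.

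Other genes of the same cell states were read from lists of known genes, as counts past the threshold beside the median log2 fold change. Over all 16417 tested genes that median was 0.04, and 48.4% passed, 25.7% as higher and 22.7% as lower. The counts of each list are to be read beside these shares, and no list was tested as a set. Of 21 other cadherin genes 8 were tested, with 3 lower, 5 not past the threshold and a median of −0.49. The 3 were CDH6 and, chosen after their values were seen, CDH3 and CDH5. CDH6, a type II cadherin of kidney and ovarian carcinoma, fell from 10.7 ± 4.28 CPM in control to 3.56 ± 0.531 CPM in shFOXK2 cells (SD, n = 2 per group; log2 fold change −1.59, SE 0.37, adjusted p = 0.00302). CDH3, encoding P-cadherin, collected 39 and 37 counts under shCtrl against 3 and 5 under shFOXK2. CDH5, the cadherin of endothelial cells, collected 76 and 33 counts under shCtrl against 0 and 0 under shFOXK2, at least 14.5-fold lower against 3 counts per library. CDH24, named after its values were seen, was the most abundant of these cadherins in both groups, at 45.3 CPM in shCtrl and 64.9 CPM in shFOXK2. Its log2 fold change was 0.52 (adjusted p = 0.0934). The summed level of the 21 genes, most of it CDH24, was 69.6 and 67.6 CPM in shCtrl and 72.8 and 78.8 CPM in shFOXK2.

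Of 14 genes of catenins, nectins and their partners at adherens junctions 10 were tested, with 6 lower, 1 higher, 3 not past the threshold and a median log2 fold change of −0.93. JUP, encoding plakoglobin, which sits in adherens junctions and desmosomes, collected 7527 and 6230 counts under shCtrl against 314 and 587 under shFOXK2 (log2 fold change −3.74, SE 0.28, adjusted p = 1.1e-06). The catenin genes CTNNB1 and CTNND1, for β-catenin and p120, had log2 fold changes of −1.15 and −1.14, and CTNNA1, for α-catenin, −0.94, with adjusted p-values of 0.00117, 0.00123 and 0.0044. NECTIN3, of an adhesion receptor beside the cadherins, was the 1 higher gene, at a log2 fold change of 1.14 (adjusted p = 0.0113), but it was at 0.17 (adjusted p = 0.495) with an offset on GC content, at 0.56 (adjusted p = 0.0546) with that on A content and at 0.67 (adjusted p = 0.1) without shCtrl replicate 2.

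Among 26 epithelial junction and surface genes 24 were tested, with 10 lower, 1 higher and 13 not past the threshold, and a median of −0.51. SPINT1, an inhibitor of epithelial serine proteases, collected 6767 and 5246 counts under shCtrl against 117 and 138 under shFOXK2 (log2 fold change −5.32, SE 0.28, adjusted p = 1.9e-07). ST14, the gene of matriptase, a protease that SPINT1 inhibits, had a log2 fold change of −3.12 (−3.83 without shFOXK2 replicate 2). TJP3, a tight junction scaffold gene, had a log2 fold change of −2.96. The tight junction genes OCLN, CLDN1 and CLDN3, named after their values were seen, had −2.32, −1.74 and −1.96. MAL2, which encodes a protein of apical transport, was the higher gene, with 308 and 170 counts under shCtrl against 494 and 728 under shFOXK2 (log2 fold change 1.61, SE 0.28, adjusted p = 0.000438). EPCAM had a log2 fold change of −0.25 (adjusted p = 0.393), and the keratin genes KRT7, KRT8, KRT18 and KRT19 of 0.19, −0.16, 0.36 and −0.47 (adjusted p from 0.13 to 0.651). None of these 5 epithelial identity genes passed in the edgeR fit of filtered counts of all 4 libraries without an offset or block. They belong to a list of 8 carcinoma and epithelial cell markers, of which 7 were tested. In the same fit 2 of that list were lower, 0 higher and 5 not past the threshold. The lower ones were MUC16 (log2 fold change −5.76, adjusted p = 2.45e-05) and PAX8 (−0.88, adjusted p = 0.0263). KRT19 passed with no filter (−0.58, adjusted p = 0.0434) and without shCtrl replicate 1 (−0.72, adjusted p = 0.0264). KRT7 passed with the A-content offset (0.53, adjusted p = 0.037), also with the replicate number as a block (0.54, adjusted p = 0.034). KRT18 passed with the GC offset (0.73, adjusted p = 0.0483) and with that offset plus the block (0.68, adjusted p = 0.0135). It also passed with the A-content offset plus the block (0.67, adjusted p = 0.0159). The value of KRT8 turned positive with the offsets on composition, that of KRT7 negative without shCtrl replicate 1 and that of KRT18 negative without shFOXK2 replicate 2.

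Of 13 epithelial regulators 8 were tested, with 4 lower, 4 not past the threshold and a median of −1.06. EHF, an ETS factor of epithelial cells, collected 1333 and 457 counts under shCtrl against 4 and 4 under shFOXK2 (log2 fold change −7.44, SE 0.52, adjusted p = 6.09e-07), or −6.84 without shCtrl replicate 1. ELF3, a related ETS factor, had a log2 fold change of −2.13 (adjusted p = 0.000467), or −3.07 without shFOXK2 replicate 2, and the pioneer factor gene FOXA1 −1.47 (adjusted p = 0.00048). GRHL3, a relative of GRHL2 named after its values were seen, collected 17 and 16 counts under shCtrl against 2 and 2 under shFOXK2. The 4 genes not past the threshold lay on both sides of 0. ESRP2, which encodes an epithelial splicing regulator, was at −0.66 (adjusted p = 0.0591), and GRHL1 was at −0.60 (adjusted p = 0.224). ESRP1, the sparse paralog of ESRP2, was at 0.96 (adjusted p = 0.166), and KLF4 was at 0.48 (adjusted p = 0.236). MIR200CHG, the host transcript of miR-200c, had 0 to 3 counts in each library.

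Of 17 other EMT factors 12 were tested, with 1 higher, 3 lower and a median of 0.06. SOX4 was higher (log2 fold change 1.02, SE 0.25, adjusted p = 0.00462), although not past the threshold without shFOXK2 replicate 2 (0.72, adjusted p = 0.0844). RUNX2 and FOXC1 were lower, with log2 fold changes of −1.49 and −1.35 (adjusted p = 0.000982 and 0.00232), as was the sparse gene GSC, named after its values were seen, at −1.77 (adjusted p = 0.0372). HMGA2, a chromatin factor tied to EMT, had a log2 fold change of 0.01 (adjusted p = 0.981). TWIST2 had 0 counts in each library and PRRX1 had 2 in one.

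Of 34 genes of mesenchymal matrix and cytoskeleton 23 were tested, with 9 lower, 4 higher and 10 not past the threshold, and a median of −0.77. The 9 held genes of both matrix and cytoskeletal proteins. SPARC, a matrix glycoprotein gene, collected 360 and 280 counts under shCtrl against 5 and 24 under shFOXK2 (log2 fold change −4.26, SE 0.46, adjusted p = 1.65e-05, and −5.58 without shFOXK2 replicate 2). The myosin light chain gene MYL9 went from 137 and 99 counts to 12 and 19 (log2 fold change −2.69, adjusted p = 0.000119). S100A4, a calcium-binding protein gene also called fibroblast-specific protein, rose from 11.3 ± 1.83 CPM in control to 109.5 ± 53.9 CPM in shFOXK2 cells (SD, n = 2 per group; log2 fold change 3.28, SE 0.35, adjusted p = 1.45e-05), or 2.63 without shFOXK2 replicate 2. NT5E, the surface nucleotidase CD73, rose as well, with 3210 and 1599 counts under shCtrl against 5951 and 6527 under shFOXK2 (1.67, adjusted p = 0.000176). CALD1, an actin-binding protein gene, was at 1.16 (adjusted p = 0.00674) but turned to −0.70 (adjusted p = 0.0192) with the A-content offset, so its direction depends on that setting, and it was at 0.80 (adjusted p = 0.0671) without shFOXK2 replicate 2. The fourth higher gene, TPM2, was named after its values were seen and was at 0.71 (adjusted p = 0.0311). CD44 and AXL, surface proteins of mesenchymal carcinoma cells, had log2 fold changes of −0.01 and 0.21 (adjusted p = 0.976 and 0.486).

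**Figure D4:**
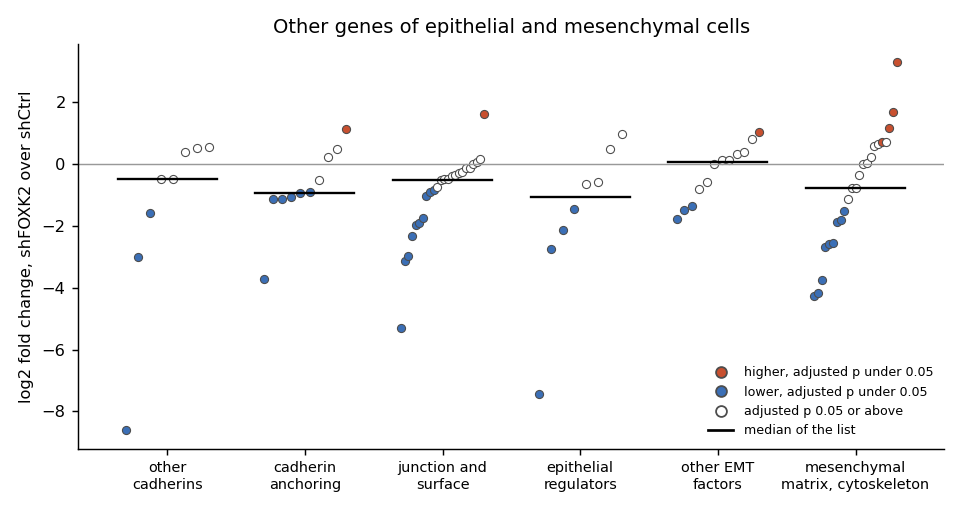
Log2 fold change of each tested gene in 6 lists, sorted within a list, with filled symbols for an adjusted p under 0.05 and a bar at the median. Lower genes outnumber higher ones in the cadherin, anchoring (catenins, nectins and their partners), junction and epithelial regulator lists, and the mesenchymal list holds 9 lower and 4 higher genes. Over all tested genes 22.7% were lower and 25.7% higher at that threshold. The lowest point of the cadherin list, CDH5, had 0 counts in both shFOXK2 libraries, so its height depends on the fit's prior count.

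In bulk RNA fewer cells of a kind and less RNA per cell cannot be told apart. Fibroblasts, which carry FN1, VIM and ZEB1, were looked for through 10 markers. Their summed level was 19.1 to 20.6 CPM in shCtrl and 14.1 to 16.9 CPM in shFOXK2, most of it COL1A1. Among the defining markers COL1A2, DCN, FAP and POSTN had 0 counts in both shCtrl libraries, COL3A1 had 2 and 0, and the highest count of any of these 5 in shFOXK2 was 3. LUM and PDGFRA had between 1 and 5 counts in each library. THY1, a surface protein gene, had 0 counts in both shCtrl libraries and 6 in each shFOXK2 library, too few to be tested. Of the 2 tested fibroblast markers, COL1A1 had a log2 fold change of 0.03 (adjusted p = 0.951) and PDGFRB, with 127 and 87 counts against 2 and 8, was lower (log2 fold change −4.16, adjusted p = 3.32e-05).

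The genes closest to the members in pattern were found by the distance between 4 mean-centred log2 CPM values, one per library, over genes whose average log2 CPM was 3 or more. For FN1 the nearest of 9923 genes were CXCL2, a neutrophil chemokine gene (distance 0.30), LCN2, encoding the iron-siderophore carrier lipocalin 2 (0.30), and ICAM1, encoding an adhesion receptor for leukocytes (0.36). ICAM1 collected 11782 and 9373 counts under shCtrl against 230 and 195 under shFOXK2. For CDH1 they were SLC2A10, a glucose transporter family gene (0.22), TRANK1 (0.32) and ATP9A, a phospholipid flippase gene (0.36). For VIM they were DNAJC1 (0.035), SIRT7 (0.047) and TUT1 (0.053). With 4 libraries such likeness is a description of one difference between groups and of the spread within them.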

How the data were processed

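Poly(A) RNA of 4 OVCAR5 libraries was sequenced as single-end reads, aligned to hg38 with STAR 2.5.2 and counted with HTSeq, per the methods and the submitters' processing notes. The deposited values are whole counts for each gene symbol and are not normalized. The annotation and strand setting are not given in the sources used here. Groups and replicate numbers were read from titles. After filterByExpr, genes were scaled by trimmed means and compared with the 2-sided quasi-likelihood test of edgeR 4.0.16 in R 4.3.3, adjusted over all 16417 tested genes. SE was the absolute log2 fold change over the square root of F. The test was tried on simulated counts with 200 changed genes, far fewer than the 7940 called in these data. That trial therefore does not give the error rate of the test here.

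Positions, lengths and composition came from GENCODE v44, where 65.7% of 56655 symbols matched. Composition was known for 88.3% of tested and 85.5% of called genes. Members and lists were chosen with earlier results of these data known. Named genes were the members, FOXK2, the carcinoma markers, up to 3 rises and 3 falls per list (mean log2 CPM of at least 1, groups not overlapping), and the nearest genes. Any other gene was named after its values were seen. Alternatives were DESeq2 1.42.0, other scalings and filters, composition offsets, the replicate block and leaving out each library.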

Additional observations from a re-analysis of the deposited data

How the results depend on the processing

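Over 11 settings with all 4 libraries the count of genes past the threshold ran from 6008 to 9207 around 7940, and over 4 fits without 1 library from 6771 to 7775. The count of members was 4, or 5 with the A-content offset and with either composition offset plus the block, and 3 or 4 without 1 library. With the replicate number as a block it was 4, and 7270 genes passed. Same-numbered samples did not deviate together over the tested genes (r = −0.113). With 2 libraries per group this value cannot show whether any of them shared a batch. Crossed numbers, added after seeing the data, gave 8350 genes. The median of all log2 fold changes shifted by 0.17 with the A-content offset, 0.13 with the GC offset and −0.10 with no filter.

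For the tested members 66 of 76 values with 4 libraries kept direction and side of the threshold, and 24 of 28 without 1 library. ZEB2 passed with the GC offset plus block (−1.80), the A-content offset (−1.85) and that offset plus block (−2.05). SNAI1 turned to 0.11 (GC offset), 0.057 (with the block), 0.12 (A-content offset) and 0.072 (with the block), and SNAI2 to −0.091 (GC offset plus block), −0.093 (A-content offset) and −0.20 (with the block). Without 1 library SNAI1 ran from −0.85 to 0.20 and SNAI2 from −0.50 to 0.83. CALD1 turned to −0.70 and −0.71 with the A-content offset, without and with the block. KRT8 turned to 0.21 and 0.20 with the GC offset and to 0.21 and 0.19 with the A-content offset, without and with the block. Without 1 library KRT7 ran from −0.057 to 0.36 and KRT18 from −0.040 to 0.63. The cause was not tested.

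With the canonical transcript length the levels per kb were 3.82 and 0.232 for CDH1 in shCtrl and shFOXK2, 291 and 503 for VIM, and 107 and 3.28 for FN1. SNAI2 was at 4.88 in shCtrl, above CDH1 and SNAI1, and ZEB1 at 5.91 in shFOXK2. Differences of ratios between groups do not depend on length. Depth limits GRHL2, CDH2, ZEB2 and TWIST1, at 13 counts or fewer in each library.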

Other observations

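Markers of other cell types, and the carcinoma markers MUC16 and PAX8 of the labelled cell type, are given here. None of them is a member, and the endothelial marker CDH5 was given among the cadherins. Of 4 mesothelial markers 2 were higher and 2 lower in shFOXK2. CALB2, the calretinin gene, collected 79 and 52 counts under shCtrl against 385 and 1252 under shFOXK2 (log2 fold change 3.82, SE 0.42, adjusted p = 1.69e-05), or 2.96 without shFOXK2 replicate 2. MSLN, encoding mesothelin, was at 1.10 (adjusted p = 0.0151), or 1.01 (adjusted p = 0.0708) without shCtrl replicate 2. UPK3B was at −1.45 (adjusted p = 0.0103), or −0.87 (adjusted p = 0.0553) without shFOXK2 replicate 1 and −2.57 without shFOXK2 replicate 2, with adjusted p-values of 0.061 and 0.0679 under the GC and A-content offsets, and LRRN4, named after its values were seen, at −2.80 (adjusted p = 0.00048). The summed level of the 4 was 45.5 and 46.2 CPM in shCtrl and 42.0 and 94.5 CPM in shFOXK2.

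Of 6 leukocyte markers, PTPRC, which every leukocyte carries, had 0 counts in 3 libraries and 3 in the other, as did CD68, and CD3E had at most 1. ITGAM collected 161 and 130 counts under shCtrl against 3 and 22 under shFOXK2 (log2 fold change −3.35, adjusted p = 0.000205), or −5.16 without shFOXK2 replicate 2, and −2.68 without shFOXK2 replicate 1. CD14 was at −1.14 (adjusted p = 0.00566). Of 5 endothelial markers, KDR had at most 1 count, and PECAM1 collected 154 and 90 counts under shCtrl against 9 and 29 under shFOXK2 (−2.45, adjusted p = 0.000536), or −3.32 without shFOXK2 replicate 2. CLDN5 lay on the other side, with 12 and 6 counts against 15 and 16 (1.04, adjusted p = 0.0989), and VWF had 7 and 1 against 0 and 7. Among carcinoma markers MUC16, the gene of a shed ovarian carcinoma antigen, collected 397 and 145 counts under shCtrl against 0 and 8 under shFOXK2 (−5.76, SE 0.66, adjusted p = 2.45e-05), or −4.94 without shFOXK2 replicate 1, and −10.89 without shFOXK2 replicate 2, which leaves a library at 0 and a value set by the prior count. PAX8 was at −0.88 (adjusted p = 0.0263), with adjusted p-values of 0.0511 to 0.1 under the offsets on composition, 0.0911 without shCtrl replicate 2 and 0.113 without shFOXK2 replicate 2.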
